A study of Mus musculus with 6 samples.

Results

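The constant genes of the TCR gamma and delta chains were examined in Dnmt3b+/- peripheral T-cell lymphomas (PTCL). The members were all genes of the expression table whose symbol starts with Tcrg-C, together with Trdc, which gave 5 of 34245 genes. These are Tcrg-C1, Tcrg-C2, Tcrg-C3 and Tcrg-C4, the constant genes of the gamma chain, and Trdc, the constant gene of the delta chain. Total RNA of 3 independent tumors was sequenced with paired-end reads of 150 bp. The tumors came from lymph nodes of FVB mice with germline loss of 1 Dnmt3b allele, and the mice were terminally sick when they were collected. Age is not given in the labels. All tumors belong to a single genotype, so every value is a description of these 3 tumors and no test between groups was made. Reads on genes, recovered from the deposited values, numbered 20271235 in tumor 1, 12486860 in tumor 2 and 13697276 in tumor 3. FPKM is the number of fragments on a gene per kilobase of its exons and per 1000000 reads of the library. A gene without a read is listed with the FPKM of 0.9 read, and a count of 0 was held to allow up to the FPKM of 3 reads. Intervals are 95% and cover counting error only.

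Most T cells carry a receptor made of an alpha and a beta chain, while gamma delta T cells carry one made of a gamma and a delta chain, both held at the surface by the CD3 proteins. The mouse gamma locus consists of several clusters, and in each of them variable (V) segments recombine with a joining (J) segment that is spliced to the constant gene of the same cluster. The delta segments lie inside the alpha locus and are removed from a chromosome when an alpha V segment joins an alpha J segment.

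On mm10 the gamma constant genes are Tcrg-C1 (ENSMUSG00000076749, chr13:19214103-19217024), Tcrg-C3 (ENSMUSG00000091682, chr13:19260884-19263528) and Tcrg-C4 (ENSMUSG00000076757, chr13:19344558-19352756) on the plus strand, and Tcrg-C2 (ENSMUSG00000076752, chr13:19304649-19307551) on the minus strand. Trdc (ENSMUSG00000104876) lies at chr14:54142851-54148868 on the plus strand. The J segments are shown because they, with the constant genes, tell the clusters apart. They are exons of the mm10 genome, printed 5′ to 3′ on the strand of the gene, and capitals mark bases that differ from Trgj1 or are added to it in a global alignment.
Trgj1 (chr13:19210343-19210402, plus strand): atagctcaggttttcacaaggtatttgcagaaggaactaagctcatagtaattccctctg
Trgj2 (chr13:19311245-19311304, minus strand): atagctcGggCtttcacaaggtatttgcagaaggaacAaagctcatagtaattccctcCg
Trgj3 (chr13:19257117-19257176, plus strand): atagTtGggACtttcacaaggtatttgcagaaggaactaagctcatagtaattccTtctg
Trgj4 (chr13:19342152-19342212, plus strand): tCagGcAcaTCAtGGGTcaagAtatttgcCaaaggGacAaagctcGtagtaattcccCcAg
Trgj2 was 4 edits and Trgj3 was 6 edits away from Trgj1, whereas Trgj4 was 19 edits away. The first 90 bases of constant exon 1 are shown because they show how far reads can be told apart between the constant genes. Capitals mark differences from Tcrg-C1.
Tcrg-C1 (chr13:19214103-19214192, plus strand): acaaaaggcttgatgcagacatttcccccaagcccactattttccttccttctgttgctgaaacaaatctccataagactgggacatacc
Tcrg-C2 (chr13:19307462-19307551, minus strand): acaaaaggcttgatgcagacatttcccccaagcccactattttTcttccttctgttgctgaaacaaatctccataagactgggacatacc
Tcrg-C3 (chr13:19260884-19260973, plus strand): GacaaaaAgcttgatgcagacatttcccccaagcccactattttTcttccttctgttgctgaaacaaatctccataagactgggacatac
Tcrg-C4 (chr13:19344558-19344647, plus strand): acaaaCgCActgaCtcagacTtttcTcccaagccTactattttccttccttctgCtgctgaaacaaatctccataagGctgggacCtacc
Over the whole of exon 1, with 330 bases in Tcrg-C1, Tcrg-C2 was 9 edits, Tcrg-C3 14 edits and Tcrg-C4 59 edits away from Tcrg-C1. Of the windows of 50 bases in the exons, 37.9% of Tcrg-C1, 28.0% of Tcrg-C2 and 42.0% of Tcrg-C3 occurred again in the gamma locus, and none of Tcrg-C4 did. Of the windows of 150 bases none occurred again for any of the gamma constant genes. Short stretches of Tcrg-C1, Tcrg-C2 and Tcrg-C3 are therefore shared. The effect of this on the reads of each of these 3 genes, and on their sum, was not tested. The reference is C57BL/6J and the mice were FVB, and differences between the strains at this locus were not examined.

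Tcrg-C2 had the highest mean of the gamma constant genes. It had 37.7 FPKM in tumor 1, 1.10 FPKM in tumor 2 and 0.527 FPKM in tumor 3, on 1059, 19 and 10 reads. Tumor 1 stood far above the other tumors, whose counting intervals overlapped, from 0.660 to 1.71 FPKM in tumor 2 and from 0.253 to 0.969 FPKM in tumor 3. The value in tumor 1 was 34.4 times that in tumor 2 and 71.6 times that in tumor 3. The mean was 13.1 ± 21.3 FPKM (SD, n = 3), and without tumor 1 it was 0.811 FPKM, below the 5.39 FPKM of Tcrg-C3 over the same tumors, so the rank of Tcrg-C2 rests on tumor 1. Among genes with more than 3 reads, Tcrg-C2 exceeded 95.5% of genes in tumor 1, 33.2% in tumor 2 and 24.0% in tumor 3. In bulk RNA, fewer cells of a type and less RNA per cell cannot be told apart.

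Tcrg-C1, the constant gene behind the V segments Tcrg-V4 to Tcrg-V7, had 16.3 FPKM in tumor 1, 0.171 FPKM in tumor 2 and 1.09 FPKM in tumor 3, on 462, 3 and 21 reads. Tumor 1 was again the high one, 14.9 times above tumor 3. The ratio to tumor 2 was 95.1 with a counting interval from 32.3 to 463, since it rests on 3 reads. Tcrg-C4 had 11.6 FPKM in tumor 1, 0.642 FPKM in tumor 2 and 0.440 FPKM in tumor 3, on 350, 12 and 9 reads. The intervals of tumors 2 and 3 overlapped, and tumor 1 was 18.0 times and 26.3 times as high. The means were 5.85 ± 9.04 FPKM for Tcrg-C1 and 4.22 ± 6.37 FPKM for Tcrg-C4 (SD, n = 3). Both rested on tumor 1, without which they were 0.633 and 0.541 FPKM.

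Tcrg-C3 followed another order. It had 0.551 FPKM in tumor 1, 10.7 FPKM in tumor 2 and no read in tumor 3, where 3 reads would be 0.222 FPKM. Tumor 2, with 132 reads, was 19.4 times above tumor 1, with 11 reads, and at least 48.2-fold higher than tumor 3. The mean was 3.77 ± 6.01 FPKM (SD, n = 3) and fell to 0.309 FPKM without tumor 2.

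Trdc, the delta constant gene, was low in every tumor. It had 0.312 FPKM in tumor 1, 0.0409 FPKM in tumor 2 and 0.187 FPKM in tumor 3, on 37, 3 and 15 reads over 3865 exon bases. The intervals of tumors 1 and 3 overlapped, from 0.219 to 0.429 FPKM and from 0.105 to 0.308 FPKM, so that their difference was not detectable at this depth. The ratio of tumor 1 to tumor 2 was 7.61 with a counting interval from 2.41 to 38.6. The mean was 0.180 ± 0.135 FPKM (SD, n = 3), and 0.114 FPKM without tumor 1. The exons of Trdc share 207 bases with Trdv5 and 96 bases with Gm43434, both on the opposite strand, and whether counting used strand is not given in the sources used here.

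**Figure D1:**
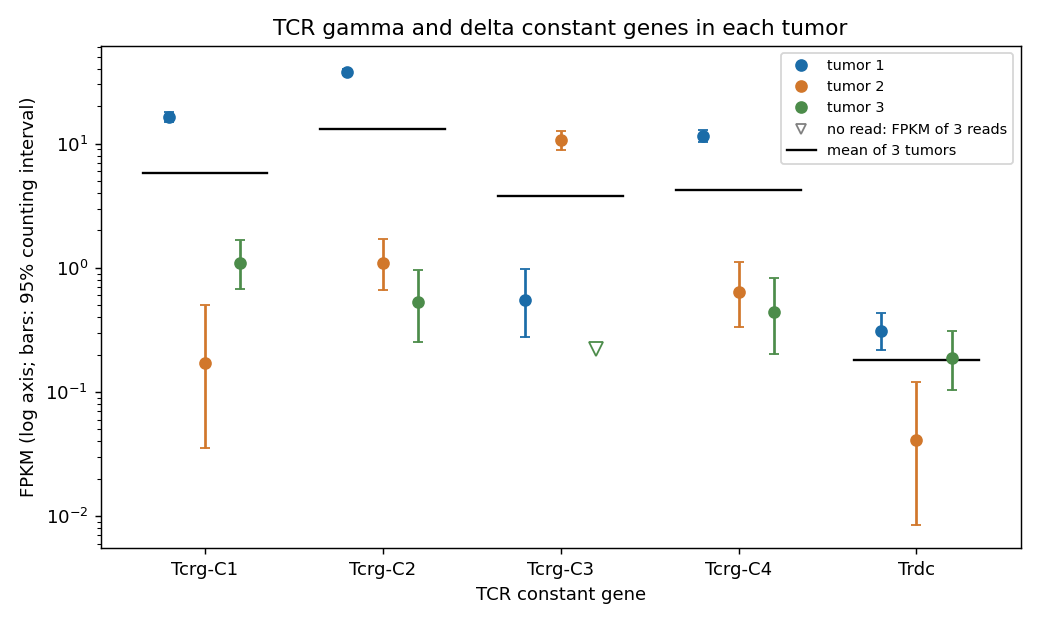
FPKM of the 5 constant genes in each tumor on a log axis, with 95% counting intervals as bars, the mean of 3 tumors as a line, and an open triangle at the FPKM of 3 reads where there was no read. Tumor 1 lies highest for Tcrg-C1, Tcrg-C2 and Tcrg-C4, at 16.3, 37.7 and 11.6 FPKM, and tumor 2 for Tcrg-C3, at 10.7 FPKM.

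Of the 5 members, 2 were above 0.2 FPKM in every tumor, where 36.7% of all genes of the table were. These were Tcrg-C2 and Tcrg-C4. All 5 were above 0.2 FPKM in at least 1 tumor, as were 46.3% of all genes. For 4 of the 5 members, all but Trdc, over 66.7% of the FPKM came from 1 tumor, as it did for 12.1% of the 15859 genes that passed 0.2 FPKM in at least 1 tumor. Nothing is read from this difference.

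Within each tumor, the shares of the gamma constant genes differed. In tumor 1, Tcrg-C2 took 57.1% of the summed FPKM of the gamma constant genes, Tcrg-C1 24.6%, Tcrg-C4 17.5% and Tcrg-C3 0.833%. In tumor 2, Tcrg-C3 took 84.9% of that sum. In tumor 3, Tcrg-C1 took 51.4%. Recovered reads were computed with the exon lengths and are not divided by them, so longer genes weigh more. By these reads, Tcrg-C2 took 56.3% of 1882 reads in tumor 1 (Wilson interval 54.0% to 58.5%). Tcrg-C3 took 79.5% of 166 reads in tumor 2 (72.7% to 85.0%). Tcrg-C1 took 52.5% of 40 reads in tumor 3 (37.5% to 67.1%), and its interval overlapped that of Tcrg-C2, at 25.0% (14.2% to 40.2%). The leading gene thus differed between tumors 1 and 2, while in tumor 3 the reads were too few to set Tcrg-C1 above Tcrg-C2. Over tumors the mean shares of FPKM were 25.8% for Tcrg-C1, 30.2% for Tcrg-C2, 29.6% for Tcrg-C3 and 14.4% for Tcrg-C4. They depended on single tumors, since the mean share of Tcrg-C3 was 1.98% without tumor 2, that of Tcrg-C2 16.7% without tumor 1 and that of Tcrg-C1 12.99% without tumor 3. The 1.98% includes the value listed for 0.9 read in tumor 3, and by reads the shares of Tcrg-C3 were 0.584% in tumor 1 and 0% in tumor 3.

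**Figure D2:**
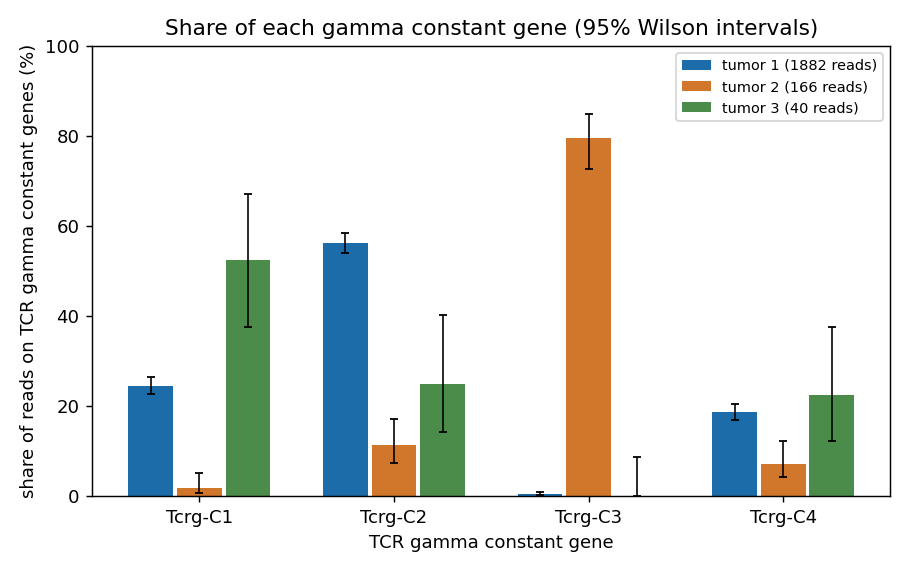
Share of each gamma constant gene in the reads on all 4, per tumor, with bars from 0 and 95% Wilson intervals as lines. Tcrg-C2 leads in tumor 1 with 56.3%, Tcrg-C3 in tumor 2 with 79.5% and in tumor 3 Tcrg-C1, with 52.5%, has an interval that overlaps that of Tcrg-C2.

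The V and J segments of the gamma locus were read next, with 7 V and 4 J genes in the table. In tumor 1, Trgv2 had 30.1 FPKM on 454 reads and Tcrg-V4 24.0 FPKM on 314 reads. These lie in the clusters of Tcrg-C2 and Tcrg-C1, the highest constant genes of that tumor. The V gene of the Tcrg-C2 cluster took 55.4% of 820 gamma V reads in tumor 1 (Wilson interval 51.9% to 58.7%), and the V genes of the Tcrg-C1 cluster took 39.1% (35.9% to 42.5%). In tumor 2, Tcrg-V3 had 16.0 FPKM on 107 reads, which was 89.2% of 120 gamma V reads (82.3% to 93.6%). Tcrg-V3 is the V segment of the Tcrg-C3 cluster and had no read in tumors 1 and 3. In tumor 3, 14 reads fell on the gamma V genes, with 6 on Trgv2 and 4 on Gm16602, which GENCODE names Tcrg-V1. The same gene was the second highest in tumor 2, with 0.987 FPKM on 7 reads.

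The J segments are short and gathered few reads. In tumor 1, Trgj4 had 16.0 FPKM on 30 reads and Trgj2 15.2 FPKM on 28 reads, while Trgj3 had none. In tumor 2, Trgj3 had 4.39 FPKM on 5 reads and Trgj4 1.73 FPKM on 2 reads. In tumor 3 a single read was recovered, on Trgj1. The constant gene that led in tumors 1 and 2 thus lay in the same cluster as the V gene with the most reads. The J reads of tumor 1 were too few to set Trgj4 above Trgj2, the J gene of the Tcrg-C2 cluster. Trgj4 took 41.1% of 73 J reads (Wilson interval 30.5% to 52.6%) and Trgj2 38.4% (28.1% to 49.8%). The cluster of Trgj4 held 18.6% of the constant reads and, with 45 reads on Gm16602, 5.49% of the V reads of that tumor. Tumor 3 had too few reads for such a statement. Gm31887, a gene on the opposite strand, shares 79 exon bases with Tcrg-V4 and had 60 reads in tumor 1 and none in tumors 2 and 3, so some of the reads on either gene may belong to the other.

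**Figure D3:**
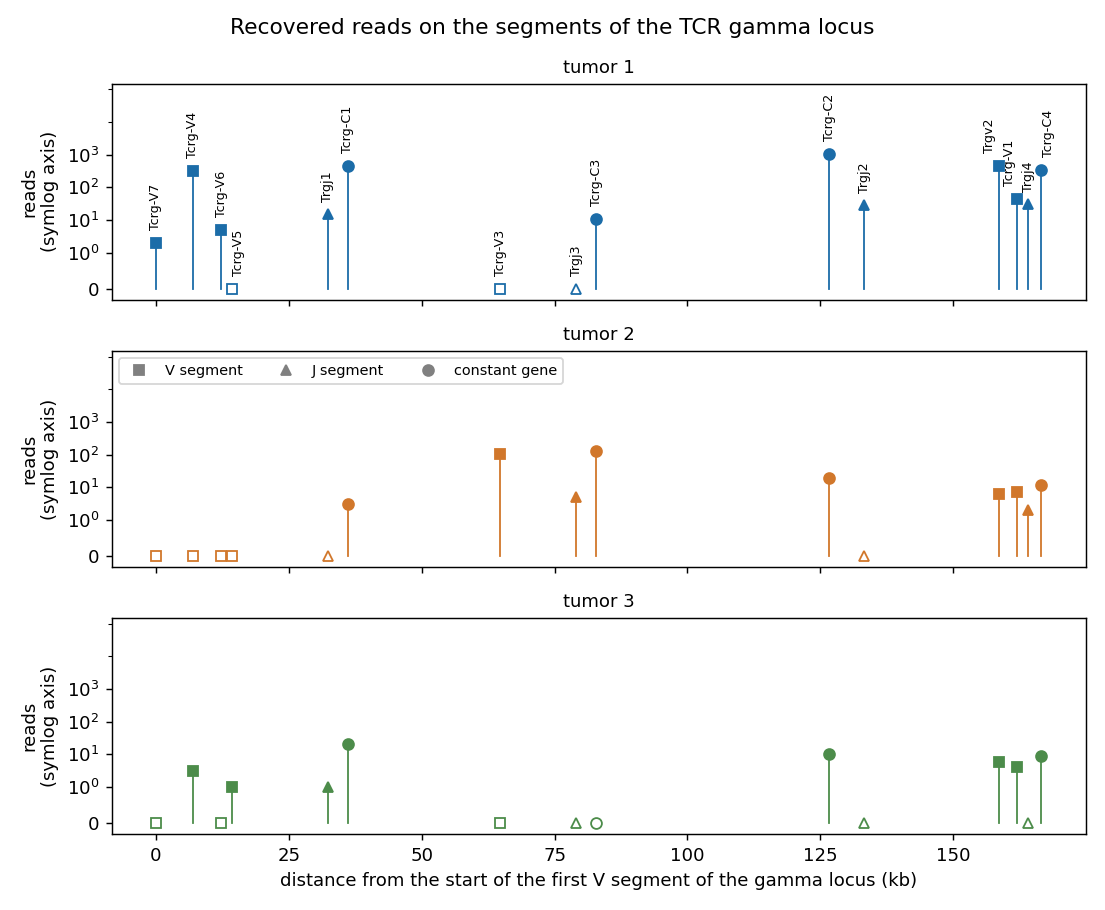
Reads recovered on each V segment (squares), J segment (triangles) and constant gene (circles) against the distance in kb from the first V segment of the gamma locus, per tumor, on an axis that is linear below 1 and logarithmic above, with open symbols for 0. Tumor 1 has most reads on 3 clusters, with 1059 on Tcrg-C2, and tumor 2 mostly on Tcrg-V3, Trgj3 and Tcrg-C3, with 107, 5 and 132.

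On the delta side, the 5 Trdv genes had 5 reads in tumor 1, none in tumor 2 and a single read in tumor 3. Trdv1 was the highest of them, with 4 reads in tumor 1. None of the 4 Trdd and Trdj genes had a read in any tumor, and the 2.66 FPKM listed for Trdd1 in tumor 1 is the value of 0.9 read on 11 bases. These genes are so short that a count of 0 says little of their level, since 3 reads would be 8.88 FPKM for Trdd1 in tumor 1 and 14.4 FPKM in tumor 2. V genes that can be used with either chain, the 10 Trav genes with dv in their name, gathered 89, 16 and 30 reads in tumors 1, 2 and 3. The highest were Trav16d-dv11 in tumor 1 with 3.13 FPKM, Trav4-4-dv10 in tumor 2 with 1.75 FPKM and Trav15-1-dv6-1 in tumor 3 with 1.82 FPKM. The next in order were Trav21-dv12 with 1.72 FPKM, Trav15-1-dv6-1 with 0.532 FPKM and Trav14d-3-dv8 with 0.528 FPKM. These reads cannot be assigned to a delta or an alpha chain.

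The constant genes of the alpha and beta chains were higher in every tumor. Trac had 165 FPKM in tumor 1, 213 FPKM in tumor 2 and 182 FPKM in tumor 3. Trbc1 had 98.2, 284 and 161 FPKM and Trbc2 had 195, 105 and 186 FPKM in tumors 1, 2 and 3. The summed FPKM of the gamma constant genes was 22.5% of that of Trbc1 and Trbc2 in tumor 1, 3.24% in tumor 2 and 0.613% in tumor 3. Tumor 1 thus stood apart in this ratio, from which library scaling cancels. The mean ratio was 8.80 ± 12.0% (SD, n = 3), and 1.93% without tumor 1. Trdc was 0.189% of Trac in tumor 1, 0.0192% in tumor 2 and 0.103% in tumor 3. The mean was 0.104 ± 0.0850% (SD, n = 3), and 0.0609% without tumor 1. With 0.1 FPKM added to both genes, as on the log2(FPKM + 0.1) scale, it was 0.158%. In every tumor the delta constant was thus further below alpha than the gamma constants were below beta.

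**Figure D4:**
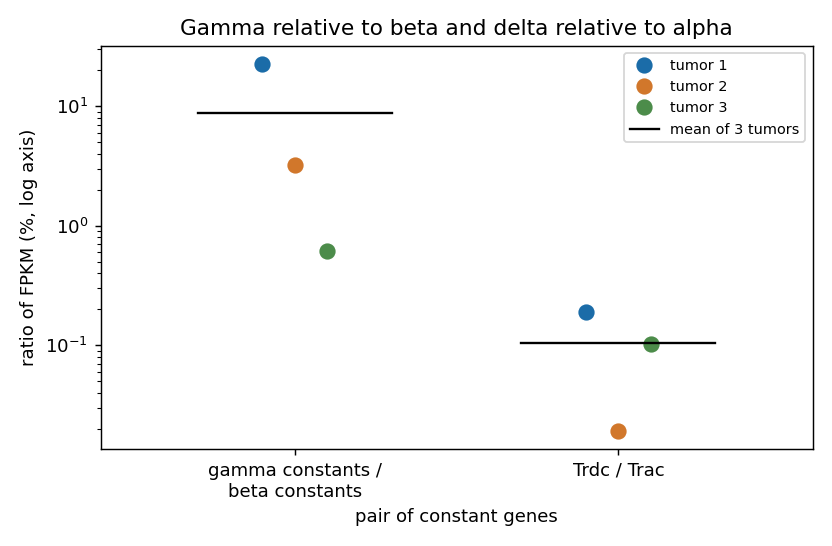
Summed FPKM of the gamma constant genes relative to the beta constant genes, and FPKM of Trdc relative to Trac, in percent on a log axis, with a point for each tumor and a line at the mean. The gamma to beta ratio runs from 0.613% to 22.5% and the Trdc to Trac ratio from 0.0192% to 0.189%.

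RNA of the CD3 chains, which carry either receptor, was detected in all tumors. Of 5 CD3 and pre-TCR chains, 4 were above 0.2 FPKM in every tumor, beside 36.7% of all genes. Cd3e, a signalling chain of the receptor complex, had 56.4, 78.1 and 65.3 FPKM in tumors 1, 2 and 3, and Cd3d had 110.3, 135 and 183 FPKM. Ptcra, the pre-TCR alpha chain of immature thymocytes, had no read in any tumor. Of the co-receptors, Cd8b1 had 435, 166 and 443 FPKM and Cd4 had 28.4, 4.28 and 8.22 FPKM. The tumor with the lowest Cd8a, at 122 FPKM, was tumor 2, where Tcrg-C3 was highest.

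Of 14 genes linked to gamma delta T cells, 8 were above 0.2 FPKM in every tumor, beside 36.7% of all genes, and 3 were above 1 FPKM in every tumor, beside 28.4%. Their median was 0.566 FPKM in tumor 1, 0.410 FPKM in tumor 2 and 0.291 FPKM in tumor 3. The 2 most abundant, scavenger receptors known from gamma delta T cells, differed between the tumors. 5830411N06Rik (Scart2) had 184 FPKM in tumor 1, 12.4 FPKM in tumor 2 and 0.296 FPKM in tumor 3. Cd163l1 (Scart1) had 3.38 FPKM in tumor 1, 62.6 FPKM in tumor 2 and 1.56 FPKM in tumor 3. Scart2 was thus highest in the tumor with the highest Tcrg-C2, and Scart1 in the tumor with the highest Tcrg-C3. Whether these genes are linked was not tested. Across the list, tumor 1 had the top value for 6 genes, and tumors 2 and 3 for 4 genes each. Counts of this kind were not made over all genes. Some top values were not resolved, as for Etv5, with 0.650 FPKM in tumor 1 and 0.655 FPKM in tumor 2. Sox13, a transcription factor of gamma delta cells, had 0.294, 0.159 and 0.0335 FPKM in tumors 1, 2 and 3. Il17a had no read in tumor 1, 2 reads in tumor 2 and 7 reads in tumor 3. Blk, a kinase of B cells and of gamma delta T cells, was highest in tumor 3 at 3.53 FPKM. B-cell markers were also highest in tumor 3.

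**Figure D5:**
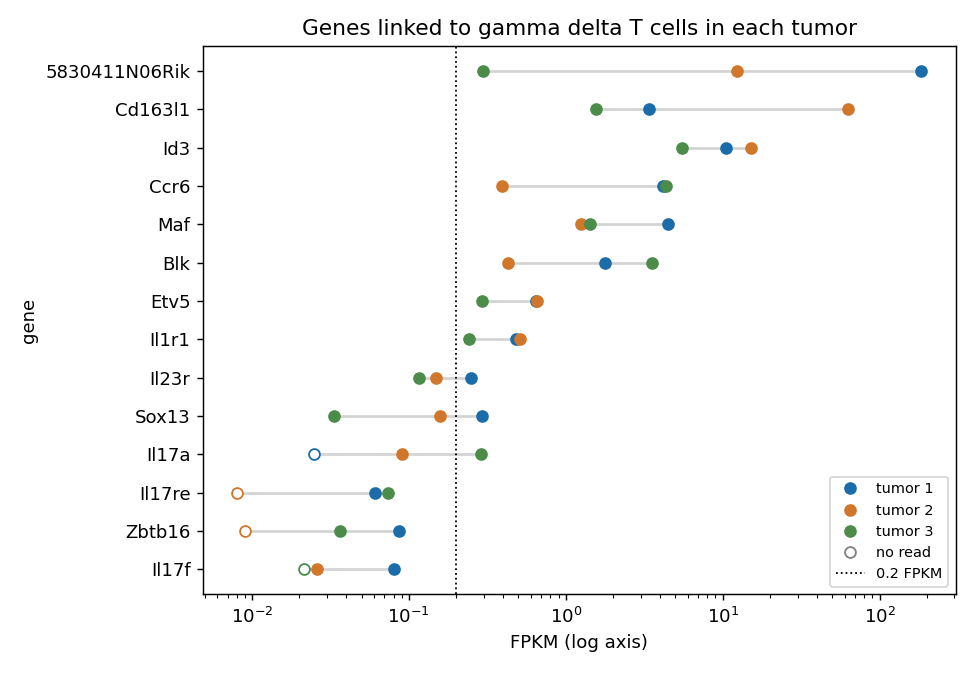
FPKM of 14 genes linked to gamma delta T cells on a log axis, with a point for each tumor, open where no read was recovered, and a dotted line at 0.2 FPKM. 5830411N06Rik reaches 184 FPKM in tumor 1 and Cd163l1 62.6 FPKM in tumor 2.

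Of 16 genes that act on the receptor loci, 13 were above 0.2 FPKM in every tumor, beside 36.7% of all genes. Rag1, a subunit of the recombinase, had 2 reads in tumor 1 and none in the others, and Rag2 had none in any tumor. Dntt, which adds bases at recombined joints in immature lymphocytes, had 10.3 FPKM in tumor 1, 0.0743 FPKM in tumor 2 and 0.747 FPKM in tumor 3. It was thus highest in the same tumor as Tcrg-C1, Tcrg-C2 and Tcrg-C4. Il7r, the interleukin-7 receptor, whose signal is known to open the gamma locus through STAT5, had 30.7, 0.641 and 64.5 FPKM in tumors 1, 2 and 3. Il7r was highest in tumor 3, where the gamma constant genes summed to the lowest FPKM. A link between Il7r and the gamma constant genes was not tested. Stat5a had 5.90, 4.52 and 5.02 FPKM and Stat5b 13.7, 10.8 and 12.9 FPKM. Leaving Rag2 aside, tumor 1 had the top value for 10 of these genes, tumor 2 for 4 and tumor 3 for 1. The same count over all genes was not made, and the top place of Rag1 rests on 2 reads. Id2 reached 38.2 FPKM in tumor 1, and Runx3 reached 36.9 FPKM in tumor 2.

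Other cell types differed between the tumors beside these genes. Of 8 T-cell markers all were above 0.2 FPKM in every tumor, beside 36.7% of all genes, with sums of 764, 995 and 934 FPKM in tumors 1, 2 and 3. All 5 myeloid markers were highest in tumor 1, with sums of 247, 39.2 and 24.2 FPKM, led by Lyz2. The 10 NK-cell markers summed to 142, 109 and 70.6 FPKM but did not share an order, since 5 peaked in tumor 1, 4 in tumor 2 and a single gene in tumor 3. Eomes, the most abundant by its mean, had 20.02, 39.5 and 45.0 FPKM, whereas Gzma had 63.4, 10.6 and 3.59 FPKM. In tumor 1 the sum was led by Gzma and by Tyrobp, which had 42.0 FPKM there. Ncr1 had 18, 6 and 4 reads. Klrb1c and Klra4 were highest in tumor 2, at 5.77 and 15.9 FPKM, and lowest in tumor 1, at 0.308 and 0.0261 FPKM. The sum is thus not a measure of NK-cell content. All 6 pancreatic acinar markers were highest in tumor 2, with sums of 70.5, 386 and 0.603 FPKM, and Ctrb1 was the most abundant by its mean. All 5 B-cell markers were highest in tumor 3, with sums of 56.2, 13.7 and 104 FPKM, led by Cd79a. Of 5 genes listed as markers of immature thymocytes, Cd1d1 alone was above 0.2 FPKM in every tumor, beside the same 36.7%. Cd1d1 had 4.95, 2.52 and 5.30 FPKM in tumors 1, 2 and 3. Of the others in this list, Dntt reached 10.3 FPKM in tumor 1, and Ptcra and Rag2 had no read in any tumor. How many of all genes were highest in each tumor was not counted beside the markers above. The part of these cell types in the levels of the gamma constant genes was not tested.

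The likeness of a gene to Trdc was taken as the largest difference, over tumors, between the shares of summed FPKM that each tumor holds. Trdc divided as 57.8%, 7.59% and 34.6% over tumors 1, 2 and 3. Of 11197 genes with a mean of at least 1 FPKM, 49 lay within 5 percentage points of it in all 3 tumors. The closest were Aldh1a2, Gm10392, Tagap, Cdc14b and Cd200r1, with differences from 0.388 to 1.51 percentage points. The shares of Trdc rest on 37, 3 and 15 reads, so the order of these genes lies within its counting error. Tcrg-C2 divided as 95.9%, 2.79% and 1.34%, and 67 of 11196 genes lay within the same distance. The closest were F830016B08Rik, Prnp, Ston1, Marco and Gm45591, with differences from 0.372 to 0.678 percentage points. A likeness over 3 tumors says nothing of shared function or control.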

How the data were processed

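Total RNA of 3 Dnmt3b+/- PTCL was sequenced with paired-end reads. The FPKM were computed by the authors, who aligned trimmed reads to mm10 with STAR, filtered on a minimum mapping quality of 50 and quantified genes in SeqMonk. Versions are not given in the sources used here. The deposited FPKM are linear and were not pooled. Exon lengths of GENCODE M21, known for 34125 genes, turned them back into reads. In each tumor 92.5% or more of the values came out whole within 0.02 read. This share counts genes without a read as whole by rule, and there were 14475, 15711 and 16541 of them in tumors 1, 2 and 3. It is thus lower among genes with reads. Since the values are FPKM, count models were not used. Steps were tested on simulated data. Bisulfite sequencing was not analysed here.

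The members and lists were chosen with earlier results of these data known. Named genes were the members, the 2 highest V, D and J genes of each kind per tumor, and fixed lists of alpha, beta and CD3 chains, co-receptors, gamma delta genes, locus regulators and markers of T, CD8, CD4, NK, B, myeloid, immature and acinar cells, with the 5 genes most like Trdc and Tcrg-C2. One gene of the gamma delta list is not reported here and was left out of its counts. Gm31887 and Gm43434 were named after their values were seen. Exact Poisson, Clopper-Pearson (ratios) and Wilson intervals were used. Alternatives were rescaled FPKM, median-of-ratios factors, log2(FPKM + 0.1), the highest gamma gene alone, read shares, other thresholds and each tumor left out. Python 3.11, pandas 2.3.3, NumPy 2.4.6, SciPy 1.17.1, matplotlib 3.10.9 and edlib were used.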

Additional observations from a re-analysis of the deposited data

How the results depend on the processing

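No paired analysis was possible because all tumors belong to 1 group. Rescaling each tumor so that its FPKM sum to 1000000 raised every level, since the deposited FPKM sum to far less, and the mean became 30.6 for Tcrg-C1, 69.1 for Tcrg-C2, 18.3 for Tcrg-C3, 22.1 for Tcrg-C4 and 0.894 for Trdc. With median-of-ratios factors the means were 5.29, 11.8, 3.75, 3.81 and 0.173 FPKM in the same order. Averaging log2(FPKM + 0.1) gave 1.64, 2.95, 0.954, 1.57 and 0.155 FPKM, lower because the mean on a linear scale follows the highest tumor. The SD of every gamma mean exceeds the mean, so a shift within 1 SD says little here, and leaving out each tumor in turn gave means from 0.811 to 19.4 FPKM for Tcrg-C2, from 0.633 to 8.68 for Tcrg-C1, from 0.309 to 5.63 for Tcrg-C3, from 0.541 to 6.10 for Tcrg-C4 and from 0.114 to 0.249 for Trdc. With Tcrg-C2 alone the gamma to beta ratio was 4.43%, and Trdc was 0.158% of Trac with 0.1 FPKM added to both. Of the 14 gamma delta genes 3 were above 1 FPKM in every tumor, beside 28.4% of all genes, in place of 8 above 0.2 FPKM, beside 36.7%. The genes within 5 percentage points of Trdc numbered 92 with a mean of at least 0.2 FPKM and 101 on the rescaled values, in place of 49. Rescaling both admits more genes and shifts the shares of each tumor, and these were not separated. Tumor 3 has 40 gamma constant reads, which limits its shares.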

Other observations

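Protein-coding genes that flank the receptor loci were chosen by position. Stard3nl, beside the gamma locus, had 1.73 FPKM in tumor 1, 1.83 FPKM in tumor 2 and 1.34 FPKM in tumor 3. Amph, the other flank of the gamma locus, had 7 reads in tumor 1, 2 reads in tumor 2 and none in tumor 3. Dad1, beside Trac, had 9.26, 12.1 and 14.9 FPKM in tumors 1, 2 and 3. Gm31887, opposite Tcrg-V4, had 3.90 FPKM in tumor 1.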
